A study of Mus musculus with 3 samples.

Results

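The 40 genes described here encode factors that make ribosomes: RNA polymerase I (Pol I), the small nucleolar particles that modify ribosomal RNA, and the assembly factors of the small (40S) and large (60S) ribosomal subunits. They were taken by symbol from a fixed list that was chosen with earlier results of these data known. All 40 were found among the 23337 gene symbols of the count files. Transcripts were measured by bulk RNA-seq of total RNA in mouse heart tubes at embryonic day 9.5. There were 2 libraries from Sox7-null tubes, homozygous per the labels for a null allele of the endothelial transcription factor gene Sox7, and 1 library from a wild-type tube. No other allele, treatment or strain is named in the labels, which leave unsaid whether each tube was taken from a single embryo or pooled. The tissue label names the heart tube, while the extraction protocol in the labels speaks of retinal organoids. Of the 6 retina markers reported, Crx and Six3 had 0 reads in all 3 libraries, and the summed level of the list was 1.41 and 0.435 CPM in Sox7-null 1 and 2 and 1.28 CPM in the wild type, against 29400 and 28200 CPM and 21800 CPM for the 8 cardiomyocyte markers (CPM, counts scaled by TMM to a common library size). The spread behind every p-value is that of the null pair alone and may be partly technical.

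Ribosome production starts in the nucleolus, where Pol I copies the ribosomal DNA into a long precursor RNA. Box C/D and box H/ACA small nucleolar particles guide methylation and pseudouridylation of this precursor, and a large assembly called the small subunit processome folds and cuts its first part. Separate sets of factors then build the 40S and the 60S subunits and carry them to the cytoplasm. The pathway is driven by MYC-family factors in many growing tissues and takes much of the energy of a growing cell.

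Reads assigned to genes numbered 13139823 and 13618338 in Sox7-null 1 and 2 and 13789388 in the wild type. Sox7 itself had 2 and 7 reads in the null libraries against 222 in the wild type. Reads that were not uniquely aligned made up 10.4% and 11.6% of the null libraries and 22.3% of the wild type. Reads that fell in no counted gene made up 8.1% and 8.52% of the null libraries and 11.7% of the wild type. All 40 genes passed the filter on low counts, and the fewest reads any of them had in a library were 195 (Tsr1 in the wild type). Because the tissue was measured in bulk, fewer cells of a type and less RNA per cell cannot be told apart.

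The box H/ACA particle held the largest share of falling genes of the 8 role groups at an adjusted p under 0.05. It had 3 of 4 members, against 10.2% of all tested genes. This order was not kept in a fit corrected for transcript length and GC. There the box H/ACA particle had 1 of 4 and the 60S assembly factors 3 of 10, against 5.81% of all tested genes. The 250 bases upstream of the annotated start of the 4 box H/ACA genes are shown. The members that fell together can thus be set beside the member that did not pass. They come from RefSeq on GRCm38.p6, each 5′ to 3′ on the gene's own strand. The Dkc1 window is chrX:75095604-75095853 (plus strand), that of Nhp2 chr11:51619523-51619772 (plus strand), that of Nop10 chr2:112261676-112261925 (plus strand) and that of Gar1 chr3:129831397-129831646 (minus strand). Capitals mark matches, on either strand, to the E-box CACGTG, the ETS core CCGGAA or the TATA box TATAAA.
Dkc1: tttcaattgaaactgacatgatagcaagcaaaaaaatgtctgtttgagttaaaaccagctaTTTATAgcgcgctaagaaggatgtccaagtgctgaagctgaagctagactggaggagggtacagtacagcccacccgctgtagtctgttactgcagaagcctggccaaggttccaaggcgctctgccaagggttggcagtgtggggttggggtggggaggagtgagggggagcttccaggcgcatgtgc
Nhp2: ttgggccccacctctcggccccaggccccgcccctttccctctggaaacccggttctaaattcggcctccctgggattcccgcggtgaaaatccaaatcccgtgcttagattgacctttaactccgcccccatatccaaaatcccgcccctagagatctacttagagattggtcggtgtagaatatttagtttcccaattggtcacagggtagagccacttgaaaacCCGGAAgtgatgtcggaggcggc
Nop10: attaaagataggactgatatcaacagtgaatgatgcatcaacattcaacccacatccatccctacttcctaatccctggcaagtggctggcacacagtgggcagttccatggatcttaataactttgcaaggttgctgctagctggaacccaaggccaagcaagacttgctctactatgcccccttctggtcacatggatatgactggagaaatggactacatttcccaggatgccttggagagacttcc
Gar1: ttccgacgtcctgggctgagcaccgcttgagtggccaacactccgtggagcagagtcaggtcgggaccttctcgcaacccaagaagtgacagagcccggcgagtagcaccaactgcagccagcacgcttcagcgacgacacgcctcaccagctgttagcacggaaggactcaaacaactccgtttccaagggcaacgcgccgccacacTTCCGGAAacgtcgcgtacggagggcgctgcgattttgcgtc
Dkc1 had 1 match, to the TATA box, Nhp2 had 1 ETS core, Nop10 had 0 matches of any kind, and Gar1 had 2 overlapping ETS cores. Among the 40 genes, 34 had a promoter in the RefSeq table, and the first listed start was used. The ETS core was in 13 of these 34 (38.2%), against 21.8% of the 9512 promoters of tested genes and 12.2% of all 27025. The E-box was in 3 (8.82%), against 8.70% and 6.05%, and the TATA box in 2 (5.88%), against 6.32% and 13.0%. These matches describe letters only and were not tested.

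In the Sox7-null heart tubes, 8 of the 40 genes fell and 1 rose at an adjusted p under 0.05 (edgeR's quasi-likelihood test, Benjamini-Hochberg over all 13334 genes tested). This was 20.0% lower and 2.50% higher, against 10.2% lower and 11.3% higher among all genes tested, of which 21.6% were called in either direction. The median log2 fold change of the 40 was -0.25 (-0.36 with Sox7-null 1 and -0.19 with Sox7-null 2 alone), against 0.01 for all tested genes. Values ran from -1.21 (Dkc1) to 0.86 (Polr1a), and only Dkc1 changed by more than 1 on the log2 scale. A corrected fit removed a trend of fold change on transcript length and GC content. In it 7 fell and 2 rose, against 5.81% and 8.96% of all genes, and the median was -0.20. The correction depends on which transcript stands for a gene. It was first made with the longest transcript and remade with the principal one after those results were seen, because some lengths looked implausible (9507 bases for Nop58, against 1713). The change left other long lengths as they were, with 10012 bases for Wdr12, 8202 for Ncl and 5836 for Imp4. Values given below are with the principal transcript unless the longest is named. Dkc1, Bop1 and Nip7 kept their calls with either transcript, and Nop58 and Mrto4 kept theirs with the longest, so that 3 or 5 of the 9 calls remained. With the longest transcript 7 fell and 2 rose as well, against 5.40% and 8.44% of all genes. Without the filter on low counts edgeR called 0 of 17242 genes, the 40 included, while 13 of the 40 had an unadjusted p under 0.05. The difference between these shares and those of all genes was not tested.

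**Figure D1:**
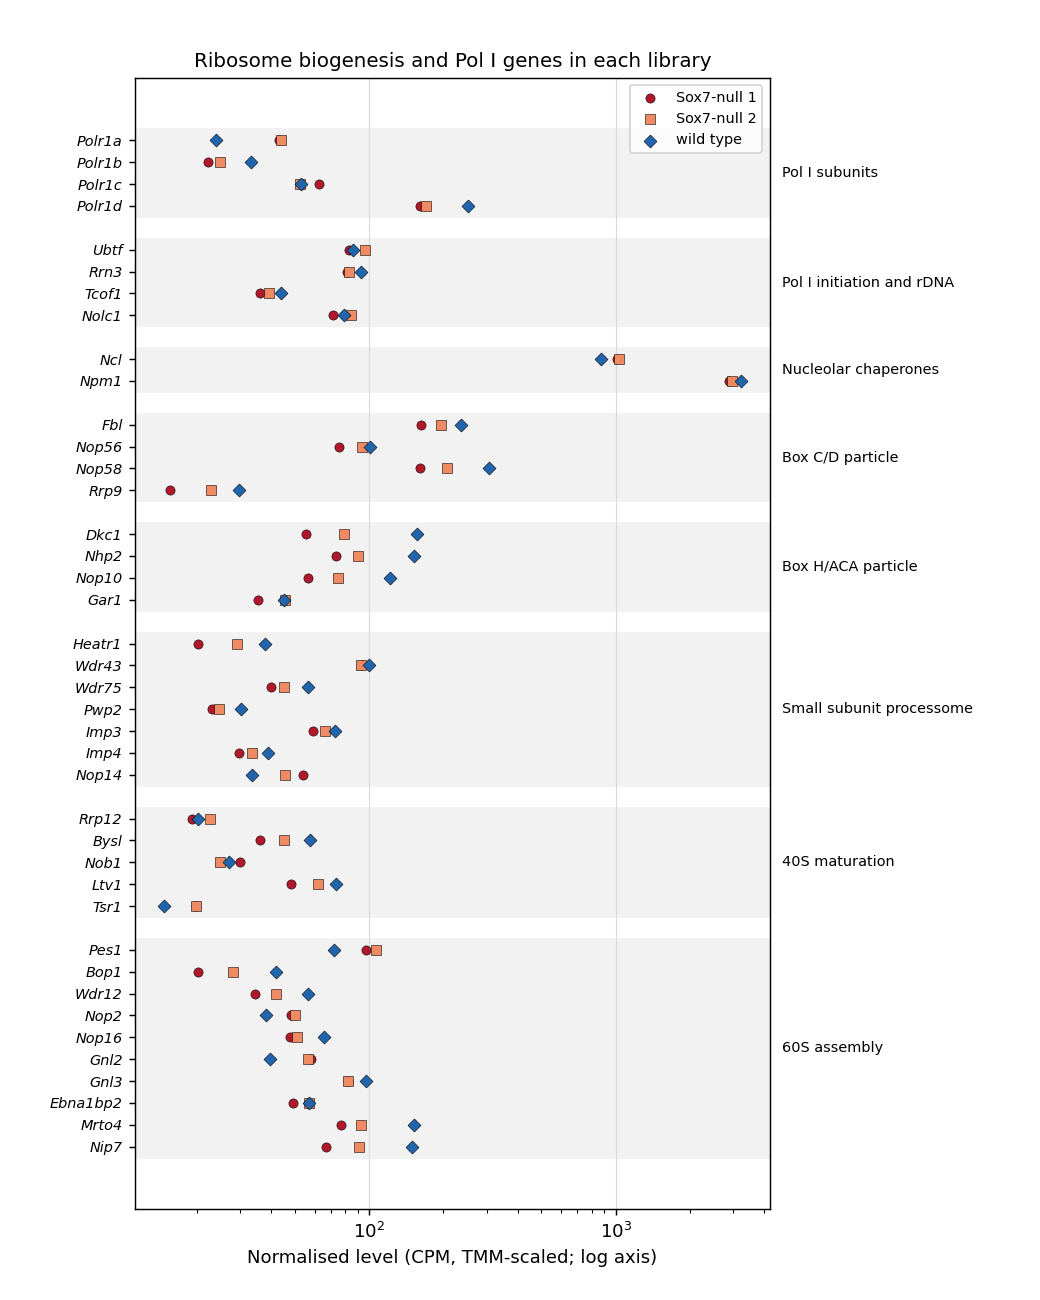
Normalised level of each of the 40 genes (x axis, CPM on a log scale, not corrected for transcript length) in both Sox7-null libraries and in the wild type, grouped by role. Both null libraries lay below the wild type for 27 genes, above it for 7, and on both sides of it for 6.

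Both null libraries lay below the wild type for 27 of the 40 genes, against 43.0% of all tested genes, and above it for 7, against 43.1%. For the other 6 the wild type lay between them. The null libraries also differed from each other in a regular way. Sox7-null 1 had the lower level of the pair for 34 of the 40 genes (85.0%), against 49.5% of all tested genes, and this pattern was looked for after values were seen. The summed level of primitive erythroid markers also differed between the null libraries and was 4540 and 14500 CPM in the null pair and 14000 CPM in the wild type, while Hba-a1 had 0 reads in each. Reads that were not uniquely aligned were left out of gene counts, so 0 reads need not mean that Hba-a1 was silent. Of the 7 tested erythroid markers 0 passed with edgeR or DESeq2, and 1 was lower at an unadjusted p under 0.05. Their part in the result was not tested.

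Of the Pol I subunits, Polr1a rose and Polr1d fell. Polr1a, which encodes the largest, catalytic subunit, had 42.9 and 43.9 CPM in the null libraries against 23.9 CPM in the wild type. Both null values were close together and well above the wild type, and the log2 fold change, given here and below ± its SE, was 0.86 ± 0.22 (edgeR adjusted p = 0.0141). Polr1a has a long transcript of 9216 bases, and in the corrected fit its log2 fold change was 0.47 and did not pass (edgeR adjusted p = 0.131). Polr1d, a small subunit shared with RNA polymerase III, had 161 and 170 CPM in the null libraries against 252 CPM in the wild type (log2 fold change -0.61 ± 0.17, edgeR adjusted p = 0.0240), and -0.31 in the corrected fit (edgeR adjusted p = 0.224). Polr1b, the partner of Polr1a in the catalytic core, had 22.2 and 24.8 CPM against 33.1 CPM, which did not pass (log2 fold change -0.49 ± 0.21) but did in the corrected fit (-0.64, edgeR adjusted p = 0.0475, and 0.0552 with the longest transcript). Polr1c, also shared with RNA polymerase III, had 62.6 and 52.5 CPM against 53.1 CPM, so that the wild type lay between the null libraries.

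Factors that bring Pol I to the ribosomal DNA did not pass the test. Ubtf, which binds the ribosomal DNA repeats, had 82.9 and 96.5 CPM in the null libraries and 86.0 CPM in the wild type. Rrn3, which links the polymerase to its promoter, had 81.3 and 83.0 CPM against 92.3 CPM. Tcof1, the treacle protein whose human gene is mutated in Treacher Collins syndrome, had 36.0 and 39.3 CPM against 44.0 CPM. Nolc1, a nucleolar phosphoprotein that binds small nucleolar particles, had 71.1 and 84.2 CPM against 79.0 CPM. The log2 fold changes of these 4 genes ran from -0.22 to 0.06, with SEs of 0.19 to 0.20, and 0 of them had an unadjusted p under 0.05 with edgeR or a call with DESeq2. In the corrected fit Tcof1 was at -0.61 and did not pass (edgeR adjusted p = 0.0505, and 0.0559 with the longest transcript). Ubtf, Rrn3 and Nolc1 were at -0.23, -0.13 and -0.16 in that fit and did not pass. The abundant nucleolar proteins did not pass either: Ncl (nucleolin) had 1010 and 1030 CPM against 872 CPM, a log2 fold change of 0.22 ± 0.14, and Npm1 (nucleophosmin) had 2890 and 2970 CPM against 3220 CPM, a log2 fold change of -0.13 ± 0.12. In the corrected fit Ncl was at 0.11 and Npm1 changed sign to 0.35, and neither passed (edgeR adjusted p = 0.718 and 0.229). Npm1 has near-identical processed copies in the genome, so its count is uncertain.

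Genes of the box H/ACA particle, which turns uridine into pseudouridine and is also part of telomerase, fell in 3 of 4 cases. Among all tested genes 10.2% fell. Dkc1 encodes dyskerin, the pseudouridine synthase itself. It had 55.6 and 79.1 CPM in the null libraries against 156 CPM in the wild type, and both null libraries lay far below the wild type, Sox7-null 1 the lower. Its log2 fold change was -1.21 ± 0.22 (edgeR adjusted p = 0.00251), or 43.2% of the wild type, and it also passed in the corrected fit (-1.01, edgeR adjusted p = 0.00628). Nhp2, a core RNA-binding protein of the particle, had 73.6 and 89.7 CPM against 152 CPM (log2 fold change -0.89 ± 0.19, edgeR adjusted p = 0.00668), and Nop10, its smallest core protein, had 56.6 and 74.7 CPM against 121 CPM (-0.89 ± 0.21, edgeR adjusted p = 0.00997). In the corrected fit these were -0.56 and -0.33 and no longer passed (edgeR adjusted p = 0.0506 and 0.246). Gar1, the remaining core protein, had 35.4 and 45.6 CPM against 45.1 CPM, with Sox7-null 2 level with the wild type (log2 fold change -0.16 ± 0.22). The fold changes of Dkc1 and Gar1 were not tested against each other.

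The box C/D particle, which methylates ribosomal RNA, had 1 of its 4 listed genes past the threshold and lower, against 10.2% of all tested genes. All 4 were lower in both null libraries, against 43.0% of all tested genes. A further core protein of this particle, Snu13 (older symbol Nhp2l1), was listed with the assembly factors described below. It fell (log2 fold change -0.96 ± 0.18, edgeR adjusted p = 0.00284), so the count depends on how genes were listed. Nop58, a core scaffold protein, fell, with 160 and 206 CPM in the null libraries against 306 CPM in the wild type (log2 fold change -0.74 ± 0.19, edgeR adjusted p = 0.0140), and its call in the corrected fit turned on the transcript: -0.30 (edgeR adjusted p = 0.280) with the principal one and -0.85 (edgeR adjusted p = 0.0172) with the longest. Its partner Nop56 had 75.3 and 93.7 CPM against 101 CPM, and the methyltransferase fibrillarin (Fbl) had 162 and 195 CPM against 236 CPM. Rrp9, which binds the U3 small nucleolar RNA, had 15.6 and 22.8 CPM against 29.7 CPM. Log2 fold changes of these 3 were -0.26, -0.40 and -0.63, and the wild-type level was the highest of the 3 libraries for each.

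**Figure D2:**
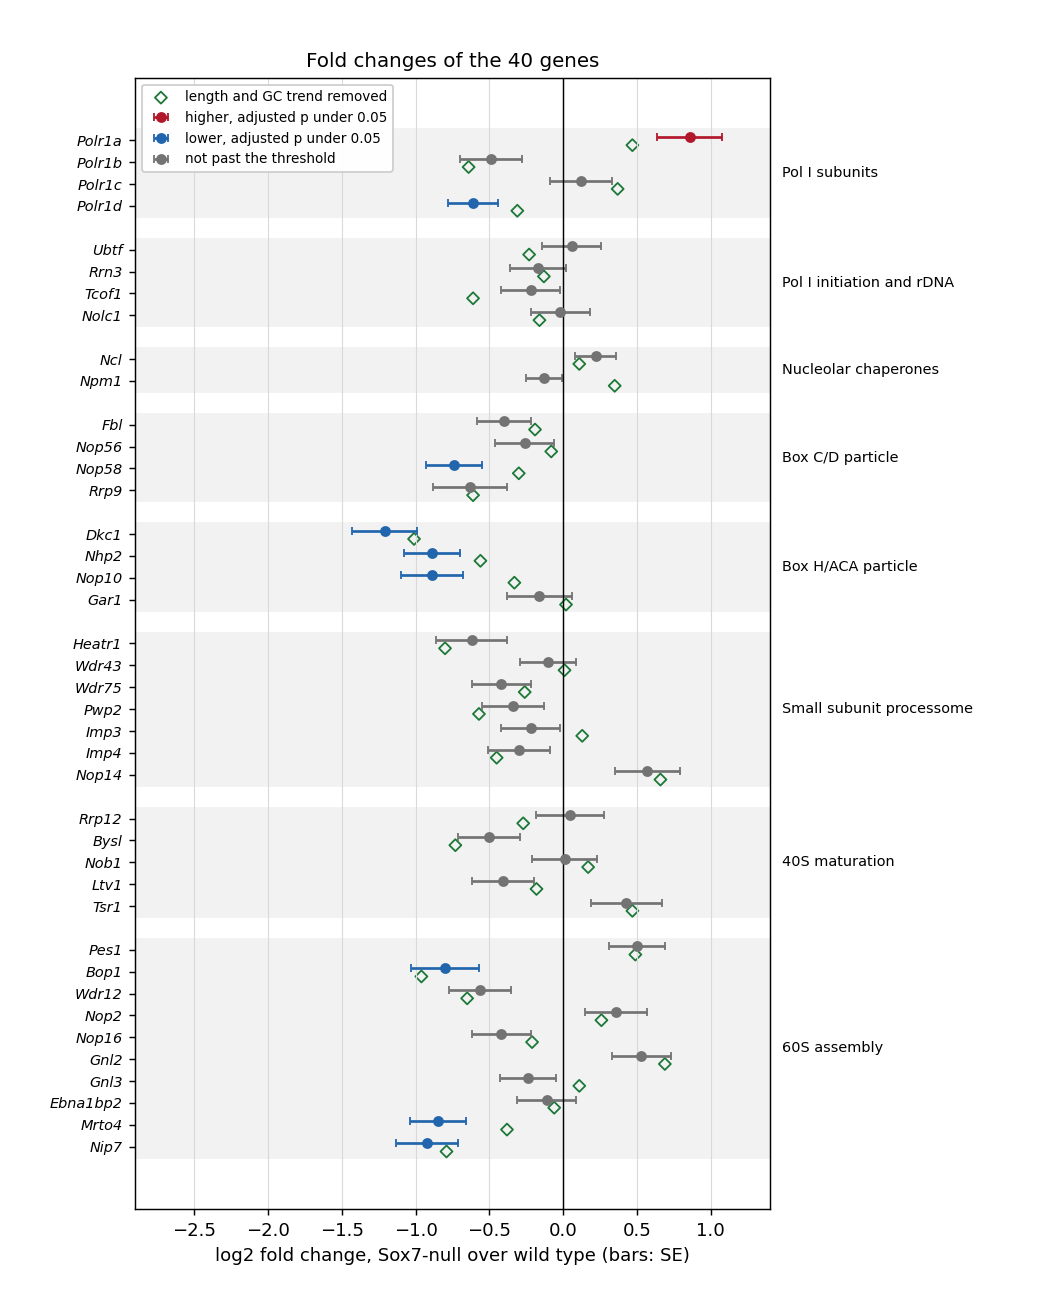
Log2 fold change of Sox7-null over wild type for each gene (points with bars of 1 SE, coloured by the edgeR call) and the same in the fit corrected for transcript length and GC (open diamonds). The 3 falling box H/ACA genes and Mrto4, Nip7 and Bop1 lie furthest left, at -0.80 or below, and Polr1a furthest right.

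Of the 7 genes of the small subunit processome 0 passed with edgeR, DESeq2 or limma-voom, while 6 had a negative log2 fold change. At an unadjusted p under 0.05 with edgeR, 1 was lower (Heatr1) and 1 higher (Nop14). Heatr1, Wdr43 and Wdr75 belong to the subcomplex that also supports Pol I transcription. Heatr1 had 20.2 and 29.2 CPM in the null libraries against 37.9 CPM in the wild type (log2 fold change -0.62 ± 0.24, edgeR adjusted p = 0.0873), and passed in the corrected fit (-0.80, edgeR adjusted p = 0.0417, and 0.0506 with the longest transcript). Wdr75 had 39.8 and 45.0 CPM against 56.7 CPM, and Wdr43 had 93.2 and 92.2 CPM against 99.6 CPM. Nop14 went the other way, with 53.8 and 45.6 CPM against 33.5 CPM (0.57 ± 0.22, edgeR adjusted p = 0.0779), and it passed in the corrected fit (0.66, edgeR adjusted p = 0.0464). Pwp2, Imp3 and Imp4, of which the last 2 bind the U3 RNA, had log2 fold changes of -0.34, -0.22 and -0.30.

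Of 5 genes that complete the 40S subunit, 0 passed with edgeR, DESeq2 or limma-voom, and 1 (Bysl) was lower at an unadjusted p under 0.05. Bysl, a processing and export factor, had 36.2 and 45.0 CPM in the null libraries against 57.5 CPM in the wild type (log2 fold change -0.50 ± 0.21), and passed in the corrected fit (-0.73, edgeR adjusted p = 0.0281). Ltv1, an export factor, had 48.3 and 61.8 CPM against 73.3 CPM. Nob1, the nuclease that makes the final cut in the small ribosomal RNA, had 30.0 and 24.9 CPM against 27.1 CPM, and Rrp12, a factor of subunit maturation and export, had 19.1 and 22.6 CPM against 20.1 CPM, so that the wild type lay between the null libraries for both. Tsr1, a GTPase-like factor of late 40S particles, had 19.9 and 19.8 CPM against 14.7 CPM (0.43 ± 0.24).

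Assembly factors of the 60S subunit included 3 of 10 that fell, against 10.2% of all tested genes (5.81% in the corrected fit). Nip7, which binds the precursor RNA of the large subunit, had 66.7 and 90.9 CPM in the null libraries against 149 CPM in the wild type (log2 fold change -0.92 ± 0.21, edgeR adjusted p = 0.00851). Mrto4, which holds the place of a ribosomal stalk protein during assembly, had 76.5 and 93.0 CPM against 152 CPM (-0.85 ± 0.19, edgeR adjusted p = 0.00853). Bop1 had 20.2 and 28.1 CPM against 42.0 CPM (-0.80 ± 0.23, edgeR adjusted p = 0.0291). In each of the 3, both null libraries lay below the wild type and Sox7-null 1 was the lowest. In the corrected fit Nip7 (-0.79, edgeR adjusted p = 0.0178) and Bop1 (-0.96, edgeR adjusted p = 0.0125) passed and Mrto4 did not (-0.38, edgeR adjusted p = 0.166), though with the longest transcript it did (-0.60, edgeR adjusted p = 0.0406), while Bop1 did not pass with DESeq2 (adjusted p = 0.105).

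Bop1 acts in a complex with Pes1 and Wdr12, and the 3 genes did not share a direction. Pes1 had 97.0 and 107 CPM in the null libraries against 72.1 CPM in the wild type, and Wdr12 had 34.4 and 42.0 CPM against 56.2 CPM. Neither passed (log2 fold changes 0.50 ± 0.19 and -0.56 ± 0.21), though Wdr12 did in the corrected fit (-0.65, edgeR adjusted p = 0.0452). That fit took a transcript length of 10012 bases for Wdr12, so this call depends on that length. The GTPase gene Gnl2 had 58.1 and 56.3 CPM against 39.5 CPM (0.53 ± 0.20), and passed in the corrected fit (0.69, edgeR adjusted p = 0.0298). Its relative Gnl3, known as nucleostemin, had 81.9 and 82.3 CPM against 96.8 CPM. The ribosomal RNA methyltransferase Nop2 had 48.1 and 49.8 CPM against 38.1 CPM, Nop16 had 47.7 and 50.8 CPM against 65.7 CPM, and Ebna1bp2 had 49.1 and 56.9 CPM against 57.1 CPM. These 4 ran from -0.42 to 0.36 on the log2 scale and did not pass.

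**Figure D3:**
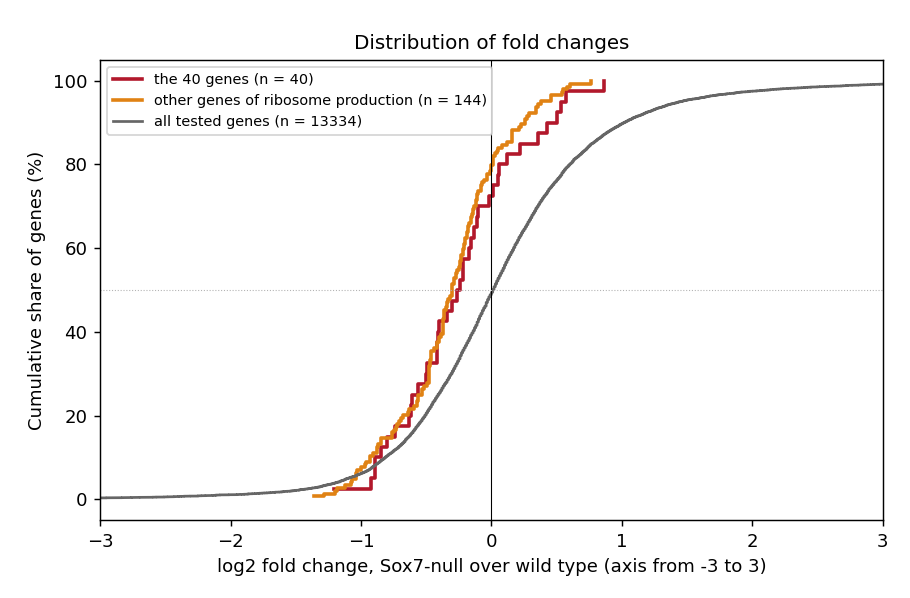
Cumulative share of genes (y axis, %) by log2 fold change of Sox7-null over wild type (x axis, shown from -3 to 3) for the 40 genes, the 144 other genes of ribosome production and all 13334 tested genes. Both pathway curves cross 50% left of 0, at -0.25 and -0.30, and are steeper than the curve of all genes.

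Transcript length stood beside these calls. The 8 genes that fell had a median transcript length of 1454.5 bases, the other 32 of 2956.5 bases, and all 13207 tested genes with a length of 3034 bases. With the longest transcript of each gene these medians were 1856, 2956.5 and 3162 bases. The strand setting of the counting is not given in the sources used here, and 16 of the 40 genes overlap an exon of a gene on the opposite strand in GENCODE M21, so that it is not known whether reads from the shared stretches were kept apart. The overlapping partner of Dkc1, Mpp1, had 22.2 and 19.8 CPM in the null libraries and 21.7 CPM in the wild type, and that of Nhp2, Rmnd5b, had 11.1 and 13.2 CPM and 13.6 CPM. The partner of Bop1, listed under the older symbol Heatr7a, rose while Bop1 fell, with 31.6 and 36.4 CPM against 19.4 CPM (log2 fold change 0.81 ± 0.23, edgeR adjusted p = 0.0247). These 3 partners were chosen after values were seen.

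The other genes of ribosome production, listed by known role in 6 lists, had 144 of 147 entries in the files, all of them tested. Of these 30 fell and 2 rose, against 10.2% lower and 11.3% higher among all tested genes. The median log2 fold change was -0.30, and 114 had a negative value (79.2%, against 49.2% of all tested genes). In the corrected fit 19 fell and 1 rose, against 5.81% and 8.96% of all genes, and the median of the 144 was -0.24. At an unadjusted p under 0.05, 46 of the 144 were lower and 7 higher, against 2272 and 2440 of all 13334. Sox7-null 1 was below Sox7-null 2 for 117 of the 144 (81.2%).

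In the uncorrected edgeR fit the lower share was highest in 3 lists, an order that was not kept with DESeq2 or in the corrected fit. Among 16 other Pol I genes 8 fell and 0 rose (7 and 0 with DESeq2, 4 and 0 in the corrected fit). Of all 13334 tested genes 10.2% fell and 11.3% rose, and 5.81% and 8.96% in the corrected fit. DESeq2 called 687 of the 13334 lower and 969 higher. Polr2k, a small subunit common to all nuclear RNA polymerases, had 37.5 and 45.9 CPM in the null libraries against 101 CPM in the wild type (log2 fold change -1.28 ± 0.20, edgeR adjusted p = 0.00136), but -0.27 in the corrected fit, where it did not pass (edgeR adjusted p = 0.330). Twistnb, the older symbol of the Pol I stalk gene Polr1f, had 55.8 and 61.9 CPM against 120 CPM (-1.03 ± 0.19, edgeR adjusted p = 0.00291) and passed in the corrected fit (-0.90). Taf1d, of the Pol I promoter selectivity factor, had 55.0 and 59.6 CPM against 120 CPM, a log2 fold change of -1.07 ± 0.19, but -0.39 in the corrected fit, where it did not pass (edgeR adjusted p = 0.154).

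Shares of all 13334 tested genes were 10.2% lower and 11.3% higher (5.81% and 8.96% in the corrected fit). DESeq2 called 687 of the 13334 lower and 969 higher. In the list of the RNA exosome and spacer processing, where nucleases trim the precursor, 7 of 17 fell and 0 rose (4 and 0 with DESeq2, 3 and 0 in the corrected fit). The exosome cofactor gene C1d fell with a log2 fold change of -0.97 ± 0.18, the cap subunit Exosc2 with -1.04 ± 0.22, and Exosc3 with -0.93 ± 0.24. In the corrected fit C1d and Exosc2 passed and Exosc3 did not (-0.45, edgeR adjusted p = 0.179). Of 7 other 40S maturation genes 3 fell and 0 rose (1 and 0 with DESeq2, 2 and 0 in the corrected fit): Pno1 had 82.1 and 107 CPM in the null libraries against 200 CPM in the wild type (-1.08 ± 0.20), and Tsr2 and Wbscr22 (the older symbol of the methyltransferase gene Bud23) had log2 fold changes of -0.75 and -0.73. The last 2 did not pass with DESeq2. In the corrected fit Wbscr22 did not pass (-0.62, edgeR adjusted p = 0.0507), while Pno1 passed with the principal transcript (-0.58, edgeR adjusted p = 0.0477) but not with the longest (0.0580).

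The remaining 3 lists had smaller lower shares in the uncorrected edgeR fit. Among all tested genes 10.2% fell and 11.3% rose in that fit, and 5.81% and 8.96% in the corrected fit. DESeq2 called 687 of the 13334 tested genes lower and 969 higher. In the uncorrected fit the shares of falling genes in the processome and 60S lists were near that of all genes. Of 37 other processome genes 4 fell and 0 rose (2 and 0 with DESeq2, 3 and 0 in the corrected fit), with Esf1 at -0.88 ± 0.18, Emg1 at -0.85 ± 0.19 and Rcl1 at -0.93 ± 0.23. Emg1 did not pass in the corrected fit (-0.42), and Rcl1 did not pass with DESeq2 (adjusted p = 0.0640). Of 57 other 60S assembly genes 6 fell and 2 rose (2 and 0 with DESeq2, 5 and 1 in the corrected fit), with Npm3, a relative of nucleophosmin, at -1.20 ± 0.20, Nol8 at -0.85, and Mki67ip (now Nifk) at -0.69. Nol8 did not pass with DESeq2 (adjusted p = 0.0518), and Mki67ip did not in the corrected fit (-0.36, edgeR adjusted p = 0.203). The genes that rose were Rrp1 (0.60 ± 0.19) and Eftud1 (now Efl1), which releases a late 60S factor (0.76 ± 0.25), and neither passed with DESeq2. Eftud1 did not pass in the corrected fit either (0.72, edgeR adjusted p = 0.0559). Of 10 factors that assemble small nucleolar particles 2 fell and 0 rose, also in the corrected fit, namely Znhit3 (-1.36 ± 0.24) and Nhp2l1, now Snu13, a core protein of the box C/D particle (-0.96 ± 0.18). With the longest transcript Znhit3 did not pass (edgeR adjusted p = 0.0521).

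**Figure D4:**
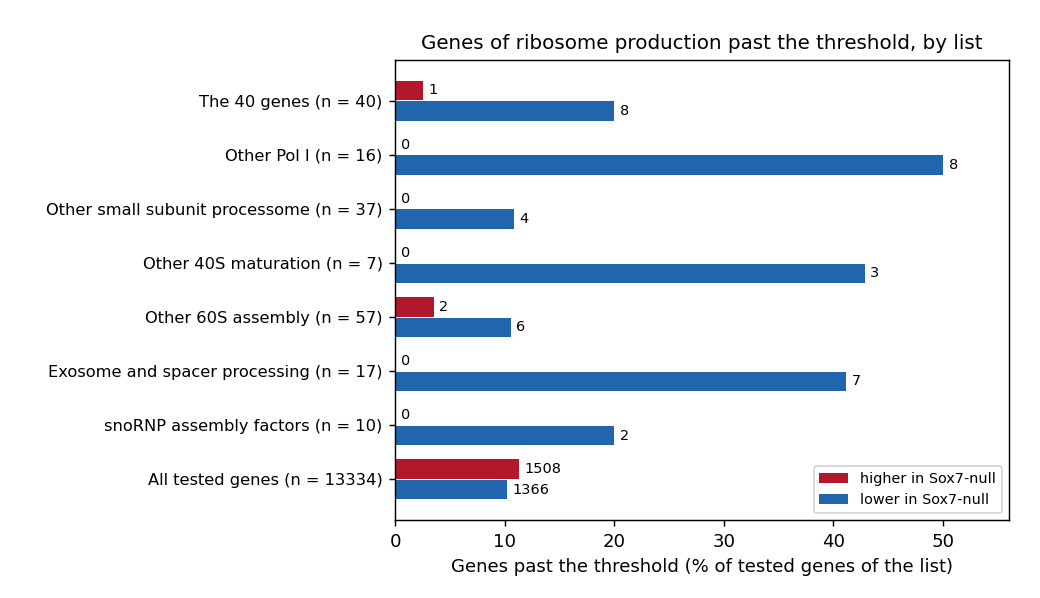
Share of tested genes past the threshold (x axis, %) that were higher or lower in Sox7-null, for the 40 genes, the 6 other lists of ribosome production and all tested genes, with the number of genes at each bar. The lower share was 20.0% for the 40 genes and 10.2% for all genes.

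Regulators and product of the pathway were read beside these genes. Mycn, a MYC-family gene of the embryonic heart, had 117 and 105 CPM in the null libraries against 76.0 CPM in the wild type (log2 fold change 0.55 ± 0.19, edgeR adjusted p = 0.0623). Myc had 25.1 and 24.2 CPM against 19.7 CPM, and Mycl1 4.15 and 3.77 CPM against 2.94 CPM, and neither passed. Of 12 genes of the MYC network 2 rose and 1 fell, also in the corrected fit. Among all tested genes 11.3% rose and 10.2% fell (8.96% and 5.81% in the corrected fit). In a list this small the counts lie near those shares, and the difference was not tested. Mxi1 and Mnt encode repressors that compete with MYC for its partner MAX. Mxi1 rose, with 119 and 89.6 CPM against 33.8 CPM (log2 fold change 1.62 ± 0.23, edgeR adjusted p = 9.37e-04), and so did Mnt, with 29.1 and 19.6 CPM against 9.04 CPM (1.43 ± 0.29, edgeR adjusted p = 0.00530). Another repressor of this family, Mxd4, fell, with 4.23 and 4.57 CPM against 9.57 CPM (-1.12 ± 0.33, edgeR adjusted p = 0.0297), though not with DESeq2. Among 7 genes of the 5S particle and p53 surveillance, which respond when ribosome assembly is disturbed, Cdkn1a alone passed. It rose, with 91.5 and 47.9 CPM against 16.2 CPM (log2 fold change 2.10 ± 0.34, edgeR adjusted p = 0.00160). The list as a whole did not rise: its median was -0.06 and 5 of the 7 had a negative log2 fold change. At an unadjusted p under 0.05 with edgeR, 3 of the 7 were lower.

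The ribosomal RNA locus Rn45s, whose transcript is the product of Pol I, held 0.654% and 0.926% of gene reads in Sox7-null 1 and 2 and 2.08% in the wild type. Its log2 fold change was -1.48 ± 0.15 (edgeR adjusted p = 1.36e-04). Total RNA kits of this kind are usually combined with removal of ribosomal RNA, so the reads that remain depend on that step as well as on the RNA in the tissue, and the 2 cannot be told apart here. The wild type also had more reads that were not uniquely aligned (22.3%, against 10.4% and 11.6%) or fell in no counted gene (11.7%, against 8.1% and 8.52%). The part of these differences in the Rn45s value was not tested.

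Counts of cell markers stand beside 11.3% higher and 10.2% lower among all tested genes (8.96% and 5.81% in the corrected fit). DESeq2 called 969 of the 13334 tested genes higher and 687 lower. Cell cycle markers, which often go with ribosome production, had 1 of 8 higher (Top2a) and 1 lower (Mcm2), neither of them with DESeq2. In the corrected fit 0 of these 8 were higher and 2 lower. Their summed level was 1290 and 1450 CPM in the null libraries and 1520 CPM in the wild type. Cardiomyocyte markers had 5 of 8 higher and 0 lower (4 and 0 with DESeq2, 4 and 0 in the corrected fit). Endothelial and endocardial markers had 2 of 8 higher and 2 lower (1 and 1 with DESeq2), with a summed level of 489 and 477 CPM in the null libraries and 473 CPM in the wild type. Liver and endoderm markers had 6 of 8 lower (2 with DESeq2), with a summed level of 14.7 and 15.2 CPM in the null libraries and 62.4 CPM in the wild type, and Alb had 0 reads in both null libraries. Mesenchyme markers had 1 of 6 higher and 3 lower (1 and 1 with DESeq2), and of 3 tested neural tube markers 2 were higher and 0 lower, with Sox1 and Neurog2 at 0 reads in every library. The part of these cell types in the result was not tested.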

How the data were processed

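RNA from heart tubes was measured in 3 libraries, prepared per the labels' protocols from total RNA with a stranded kit. Each deposited file holds the raw read counts of 1 library for 23337 gene symbols, and its 5 summary lines were left out. The tools named in the submitters' processing notes are CASAVA, TopHat2, HTSeq and, at version 1.10.1, DESeq2. Human builds are named although the symbols are those of mouse. Annotation and strand setting: not given in the sources used here. Counts were tested with edgeR 4.0.16 (glmQLFit, glmQLFTest, TMM factors 1.03, 1.01 and 0.962, filterByExpr with a minimum count of 10) in R 4.3.3. The filter kept 13334 genes and left out 10003. There was 1 residual degree of freedom, so the spread of the wild type was taken to equal that of the null pair, and the biological coefficient of variation was 15.0%. The SE is the log2 fold change divided by the square root of F. Levels are CPM on TMM-scaled libraries, and differences per null library are of log2(CPM + 0.5). A trend on length and GC of the principal GENCODE M21 transcript (20953 symbols matched directly, 1920 through older symbols) was fitted per null library with mgcv 1.9.3 and removed as an offset. The principal transcript replaced the longest one after results with the longest had been seen, and the longest is kept as an alternative. Alternatives used DESeq2 1.42.0, limma 3.58.1 (voom), other scalings and other filters. All 40 genes could be named, with Sox7, Rn45s, Myc, Mycn, Mycl1, and up to 3 genes by smallest p in each direction from each other list. The genes and lists were chosen with earlier results of these data known. Of the retina markers chosen, 1 is not reported here.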

Additional observations from a re-analysis of the deposited data

How the results depend on the processing

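No paired analysis was possible because there is only 1 wild-type library, so that the groups share fewer than 2 replicate numbers. The 9 calls among the 40 genes were the same 9 with DESeq2 size factors, upper-quartile scaling, a mean of at least 5 CPM, limma-voom, and Rn45s and Lars2 left out of library sizes. DESeq2 kept 8 of them. With library totals only, 4 of the 40 were higher instead of 1, Nop14, Pes1 and Gnl2 being added, and the median of all genes was 0.097. With the length and GC trend removed 2 were higher and 7 lower, and 3 of the 9 calls remained. That trend uses the principal transcript, chosen after seeing the data in place of the longest, which was used first. With the longest 2 were higher and 7 lower and 5 of the 9 remained, while Polr1b and Heatr1 were not called. Without a filter on low counts edgeR called 0 of 17242 genes in either direction, and so 0 of the 40 and 0 of the other lists, while 4113 genes and 13 of the 40 had an unadjusted p under 0.05. The cause was not tested. Over all genes, 1508 higher and 1366 lower became 969 and 687 with DESeq2, and 775 lower with the trend removed (720 with the longest transcript). The other pathway lists had 2 higher and 30 lower. Higher calls numbered 5 with library totals only and with upper-quartile scaling, 1 at 5 CPM, with limma-voom and with the trend removed (either transcript), and 0 with DESeq2. Lower calls numbered 18 with DESeq2 and 19 with the trend removed (17 with the longest transcript). The median of the 40 was -0.36 without Sox7-null 2 and -0.19 without Sox7-null 1. These are values with no test, since 1 library against 1 leaves no residual degrees of freedom. No call among the 40 reversed. The 1 wild-type library limits every value.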
